A study of Mus musculus with 2 samples.

Results

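Synaptic adhesion genes were followed across neurons of the mouse paraventricular hypothalamus (PVH), a nucleus that controls appetite and pituitary hormone release. Members were all gene rows whose symbols begin with Nrxn, Nlgn, Nxph, Lrrtm, Cntn and a digit, Cntnap, Cbln, Clstn, Tenm, Il1rapl, Slitrk or Lrrc4, together with Adgrl1, Adgrl2 and Adgrl3. The rule uses names alone and took 60 of 31053 gene rows. Of these, 8 rows (Lrrc40, Lrrc41, Lrrc42, Lrrc43, Lrrc45, Lrrc46, Lrrc47 and Lrrc49) share only the letters Lrrc4 with the netrin-G ligand genes. Levels are given as CPM, the UMIs (counted molecules) of a gene per 1000000 UMIs of all genes in the same nuclei. These rows reached 1.17 to 159 CPM in neurons, passed 2-fold in no neuron class, and are not described further. The other 52 members fall into 13 families.

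The study pooled nuclei of 17 mice aged 4 weeks in 1 single-nucleus droplet library. All mice carried Sim1-Cre, which is active in the Sim1 lineage that includes most PVH neurons, and a Sun1-GFP reporter that marks the nuclear envelope of those cells, by which their nuclei were sorted. By genotype 6 were Sim1-Cre; Sun1-GFP; OtpQ153R/+, 4 were Sim1-Cre; Sun-GFP; Otpfl/+, and 7 were Sim1-Cre; Sun1-GFP without an Otp alteration. Otp is a homeobox transcription factor of hypothalamic neurons. Hashtag antibodies, named Q153R, KD and Ctrl in the deposited feature list, mark the pools, and KD was assigned to the Otpfl/+ mice because no other pool remained. Each genotype is therefore 1 pool of several mice in 1 library, individual mice cannot be told apart, and no test between genotypes is possible. Classes were not tested either. Class values are given within each pool for some members and as a ratio over all pools for the others. All intervals below are exact 95% intervals that cover counting error only and treat the UMIs of a nucleus as independent. Differences between pools mix genotype, sex, shares of cell types and mice, so they do not measure the spread between mice.

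Synaptic adhesion proteins span the cleft between an axon terminal and its target cell. Neurexins sit mainly on the axon side and bind neuroligins, LRRTM proteins, and the secreted cerebellins and neurexophilins. Teneurins and latrophilins form another such pair, while IL1RAPL, SLITRK and netrin-G ligand proteins meet receptor phosphatases or netrin-G proteins on the axon. Which of these genes a neuron transcribes is thought to help set which inputs and outputs it forms. PVH neurons that make oxytocin or vasopressin project largely to the posterior pituitary, where axons end on blood vessels.

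A barcode was kept where exactly 1 hashtag passed its threshold, which held for 4912 of 6173 barcodes. Of those, 4420 passed the neuron rule of at least 5 UMIs over Snap25, Syt1, Rbfox3, Grin2b and Stmn2 and more UMIs of these than of glial, vascular and ependymal markers together. Neurons held 515 to 29974 UMIs. Classes were set by the UMIs of their own transcripts, with 143 Oxt, 180 Avp, 203 Sst, 128 Trh, 84 Crh and 259 GABAergic nuclei (Gad1, Gad2 and Slc32a1 together). A further 3390 neurons passed no gate and 33 passed more than 1. Sim1 reached 917 CPM in Oxt nuclei and 819 in Avp nuclei but 112 in GABAergic nuclei, which thus carry little of the PVH marker. Free RNA was present, since Oxt reached 127 CPM in neurons outside every gate and 379.6 in the 129 nuclei with at least 5 UMIs of glial, vascular and ependymal markers and no fewer of them than of neuron markers, called glial-marker nuclei below. Otp had 112 CPM in neurons labelled Q153R, 78.8 in those labelled KD and 47.8 in those labelled Ctrl, without the GABAergic class. The pool labelled KD was thus not the lowest. Gene totals do not show which allele or exon a UMI came from, so they check no genotype, and pool names here are hashtag labels.

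Promoter sequence was available from RefSeq (build GRCm38.p6) for 46 of the 60 member rows. The 250 bases before annotated starts are shown for Nrxn3 and Cntn4, which differed between classes, and for Cntnap2, the member with the highest CPM. Nrxn3 has 3 listed starts inside its gene, 71628, 230514 and 1089607 bases from its GENCODE start. The Cntn4 start shown lies 441105 bases and the Cntnap2 start shown 704 bases from the GENCODE start of its gene. UMI totals of a gene do not tell which start was used. Whether transcripts begin at the listed starts inside genes was not tested, so these windows may not all be promoters. All lie on the plus strand, at chr12:88794254-88794503, chr12:88953140-88953389, chr12:89812233-89812482, chr6:106118515-106118764 (Cntn4) and chr6:45059811-45060060 (Cntnap2), and capitals mark a GGGCGG motif.
Nrxn3, start 1: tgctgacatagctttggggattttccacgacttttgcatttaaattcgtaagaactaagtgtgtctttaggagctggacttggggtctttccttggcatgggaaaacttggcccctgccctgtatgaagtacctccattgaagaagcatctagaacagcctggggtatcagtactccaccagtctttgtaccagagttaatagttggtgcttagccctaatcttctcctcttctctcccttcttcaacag
Nrxn3, start 2: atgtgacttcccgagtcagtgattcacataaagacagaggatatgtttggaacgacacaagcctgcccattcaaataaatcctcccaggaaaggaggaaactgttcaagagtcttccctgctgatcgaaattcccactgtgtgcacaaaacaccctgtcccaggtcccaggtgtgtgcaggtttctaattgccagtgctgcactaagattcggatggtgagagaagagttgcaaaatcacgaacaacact
Nrxn3, start 3: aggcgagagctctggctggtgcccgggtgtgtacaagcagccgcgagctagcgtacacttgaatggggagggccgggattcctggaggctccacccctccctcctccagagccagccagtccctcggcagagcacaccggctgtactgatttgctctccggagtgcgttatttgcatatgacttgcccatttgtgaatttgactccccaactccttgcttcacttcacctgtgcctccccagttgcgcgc
Cntn4: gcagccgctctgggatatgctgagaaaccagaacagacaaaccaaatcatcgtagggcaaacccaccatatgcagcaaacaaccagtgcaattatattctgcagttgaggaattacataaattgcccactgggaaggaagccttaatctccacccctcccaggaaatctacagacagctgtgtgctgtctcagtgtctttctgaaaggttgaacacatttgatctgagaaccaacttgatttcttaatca
Cntnap2: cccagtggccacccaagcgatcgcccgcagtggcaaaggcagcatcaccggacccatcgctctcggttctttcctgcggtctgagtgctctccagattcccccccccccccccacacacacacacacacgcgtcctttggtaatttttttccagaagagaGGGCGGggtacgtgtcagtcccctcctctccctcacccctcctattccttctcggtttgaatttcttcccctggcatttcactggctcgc
Both strands of these windows were searched for the homeobox core TAATTA, for the TATA box letters TATAAA, for the GC box letters GGGCGG and for the CCAAT box. The sole match among the 5 was the GGGCGG before Cntnap2, a motif found in 32.7% of 32851 promoter windows of the same length. TAATTA was in 4.84% of those windows, TATAAA in 12.4% and CCAAT in 33.8%. Cntn4 and Cntnap2 each have a further listed start, 441282 and 2185039 bases from their GENCODE starts. The windows of these further starts overlap exons and are not shown. The one of Cntn4 held 1 TAATTA and the one of Cntnap2 held 2 CCAAT matches. The GC content of the Nrxn3 windows was 45.6%, 46.8% and 60% in the order shown, against 44.4% before Cntn4 and 59.6% before Cntnap2.

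The 52 genes together took 4.53% of all UMIs in neurons. 10 members were at 1000 CPM or more, 24 between 50 and 1000, and 18 below 50. Nuclear RNA is rich in unspliced transcripts, and levels were higher for longer genes. Spearman's rho between genomic span and CPM was 0.906 over the members, as a description across genes of 1 library. Per 100 kb of gene span the relation was -0.0674, so levels of different genes are compared on that scale.

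**Figure D1:**
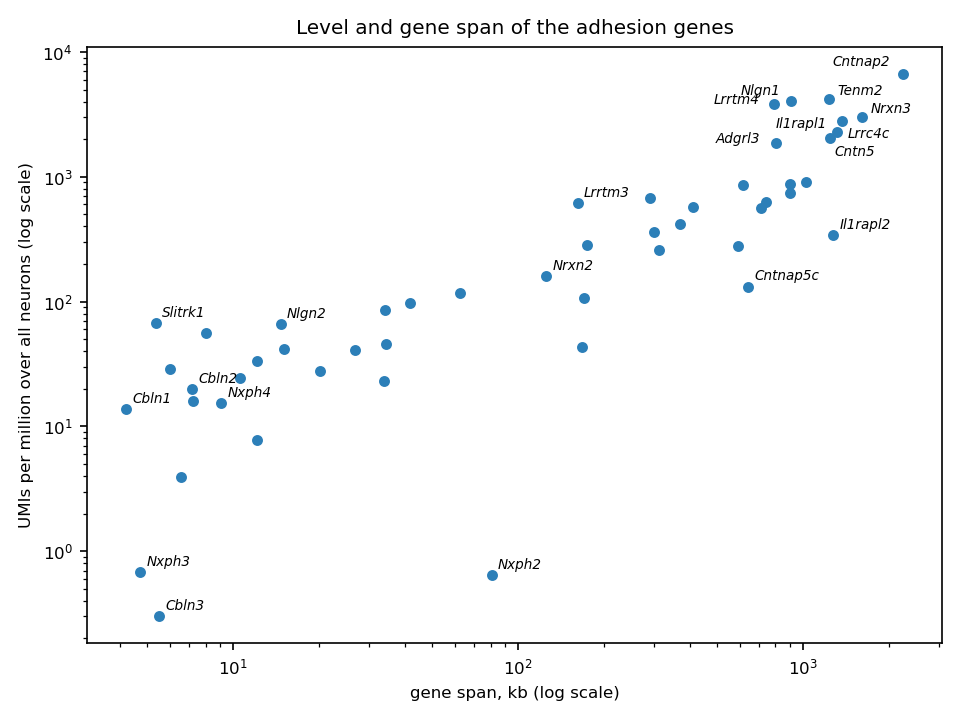
Level of the adhesion genes reported here over all neurons (CPM, log scale) against the genomic span of the gene (kb, log scale), 1 point a gene. Levels run from 0.301 for Cbln3 to 6647 for Cntnap2, and Nxph2 lies far below other genes of its span.

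Among the neurexins, the axonal receptors at the centre of this network, Nrxn3 had 2994 CPM and Nrxn2 159.9. Per 100 kb Nrxn3 had 186 and Nrxn2 127 CPM. Nrxn3 UMIs were found in 85.0% of neurons. Among the neuroligins, the classical binding partners of neurexins, Nlgn1 of excitatory synapses and Nlgn2 of inhibitory synapses were close per length, at 444 and 451 CPM per 100 kb, and Nlgn3 was at 152. The LRRTM genes, whose products bind neurexins from the target side of excitatory synapses, ranged from 276 for Lrrtm1 to 479.9 for Lrrtm4 on the same scale.

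The secreted ligands of neurexins come from mostly short genes and had few UMIs apart from Nxph1. Cbln1, Cbln2 and Cbln4, which link neurexins to delta glutamate receptors or other partners, had 13.8, 19.8 and 16.0 CPM, and Cbln3 had 0.301. Per 100 kb the first 3 had 328, 276 and 221 CPM, above Nrxn3 and Nrxn2. Nxph1, a neurexophilin that binds alpha-neurexins, had 361 CPM, while its relatives Nxph4, Nxph3 and Nxph2 had 15.5, 0.677 and 0.640. Per length Nxph4 was above Nxph1, at 170.2 against 120.0 CPM per 100 kb.

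Cntnap2, which encodes the axonal protein Caspr2 that helps cluster potassium channels, had 6647 CPM and ranked 4 among all genes; its gene spans 2245 kb. Contactins, immunoglobulin proteins held to the membrane by a lipid anchor, ran from 67.9 per 100 kb for Cntn2 to 233 for Cntn1. Tenm2, a teneurin, had 4171 CPM and 339 per 100 kb, and the latrophilin Adgrl3 had 1854 and 230.3. Clstn2, a cadherin-type calsyntenin of the target-side membrane, had 280.3 CPM. Il1rapl1, an interleukin-1 receptor relative that binds the phosphatase receptor PTPRD, had 2776, and the netrin-G1 ligand Lrrc4c had 2275. The highest members per length were the small genes Slitrk1 with 1259 and Slitrk5 with 696 CPM per 100 kb, whose products bind phosphatase receptors.

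On the CPM scale, which follows gene length, Nlgn1 had 4021 and Lrrtm4 3797 CPM, the most of their families, while Nlgn2 had 66.1, Nlgn3 40.9, Lrrtm3 611, Lrrtm1 41.7 and Lrrtm2 28.9. Among the contactins Cntn5 had 2062, Cntn4 903, Cntn1 679, Cntn3 572, Cntn6 416 and Cntn2 23.0 CPM. The contactin-associated genes below Cntnap2 ran from 27.7 CPM for Cntnap1 through Cntnap3, Cntnap5c, Cntnap4 and Cntnap5b to 747 for Cntnap5a. Tenm1, Tenm3 and Tenm4 lay between 629.6 and 869.9 CPM. Members at lower levels included Adgrl2 (284 CPM), Adgrl1 (98.3), Clstn1 (116), Clstn3 (85.9), Lrrc4 (108) and Lrrc4b (45.9). The SLITRK genes ran from 3.95 CPM for Slitrk6 and 7.71 for Slitrk2, through Slitrk3, Slitrk4 and Slitrk5, to 67.5 for Slitrk1.

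Some of these levels may hold reads of a neighbour. Lrrtm1, Lrrtm2 and Lrrtm3 lie inside the catenin genes Ctnna2, Ctnna1 and Ctnna3 and Lrrc4 inside Snd1, each on the opposite strand, and whether counting used strand is not given in the sources used here. Their values are uncertain to that extent.

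Nuclei with glial markers showed how far each member marks neurons. Il1rapl2 had 2.60 CPM there (1 UMI) against 341 in neurons, Cntn5 62.4 against 2062, and Cntnap2 738 against 6647. Several members were higher in glial-marker nuclei than in neurons, among them Lrrc4c (3505 against 2275 CPM) and Nxph1 (679 against 361). So were Adgrl3 (2116 against 1854) and Cntn1 (855 against 679). Cntn2 (54.6 against 23.0) and Slitrk2 (52.0 against 7.71) were too, on 21 and 20 UMIs in glial-marker nuclei. Members therefore range from nearly neuronal to higher outside neurons.

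Unevenness between neurons was measured after thinning each nucleus to 2000 UMIs, as the coefficient of variation beyond Poisson counting. Its median was 1.05 over the 47 members with enough UMIs and 0.999 over 9463 genes, so the members as a group were close to the background. Cbln4 at 3.21, Il1rapl2 at 2.87, Cntnap3 at 2.60 and Nxph1 at 2.57 were patchy. Nrxn2 at 0.351 and Slitrk5 at 0.350 were even. Some of these rest on few UMIs. The mean per thinned nucleus was 0.0302 for Cbln4, 0.0830 for Cntnap3 and 0.110 for Slitrk5, where 0.02 was the least allowed. No intervals are given for these values, so their order is uncertain.

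Neuron classes differed in which adhesion genes they carried. Each class was set against all other neurons, and a gene was called where its CPM differed at least 2-fold and at least 20 UMIs were expected in both groups. Of 253 pairs of a member and a class that passed this filter, 59 were called, 10 higher and 49 lower. They involved 29 of the 47 members tested in some class. Shares of all genes called are given class by class in the next paragraph. None is given over the classes together, so 29 of 47 has no background beside it. Nxph2, Nxph3, Cbln3, Slitrk2 and Slitrk6 had too few UMIs in every class. In all 59 pairs the Q153R, KD and Ctrl nuclei lay on the same side of the other neurons of their own pool. All pools were past 2-fold in 7 of the 10 higher and 32 of the 49 lower pairs. The pairs were called on the UMIs of these same pools together, so agreement of the pools is no separate check.

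Counts per class are read against the share of all genes called in the same comparison. In Oxt nuclei 3 members were higher and 7 lower of 44 tested, where 2.21% of all genes were higher and 5.4% lower. In Avp nuclei 0 were higher and 14 lower of 44, where 2.5% and 9.18% of all genes were. In Sst nuclei 1 was higher and 9 lower of 43, against 1.47% and 5.39% of all genes. Trh nuclei had 2 higher and 2 lower members of 41, against 0.42% and 1.78%. Crh nuclei had 2 higher and 13 lower of 34, against 6.29% and 16.2%. GABAergic nuclei had 2 higher and 4 lower of 47, against 0.406% and 1.4%. Lower members made up a larger share of those tested than of all genes in each of the 6 classes, though among genes of at least 500 kb this does not hold in Oxt and Trh nuclei.

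The median log2 ratio of the tested members was -0.31 in Oxt, -0.37 in Avp, -0.37 in Sst, -0.12 in Trh, -0.71 in Crh and -0.0028 in GABAergic nuclei. Over all genes tested it was 0.003, -0.02, -0.01, 0.03, -0.18 and -0.0027 in the same order. Long genes that are not members were also more often lower than all genes. Of genes spanning at least 500 kb, 10 of 19 members were lower in Avp nuclei, and 39.2% of 194 non-members were (median log2 ratio -0.44). In Crh nuclei 10 of 19 members of that span were lower, and 32.3% of 186 non-members (median -0.43). In Oxt nuclei 15.8% of members of that span and 19.6% of such non-members were lower, and in Trh nuclei 5.26% of members and 8.90% of non-members. In Sst nuclei the shares were 26.3% of members and 14.9% of non-members, and in GABAergic nuclei 5.26% of members and 2.01% of non-members. The part of gene length in the lower calls was not tested, and in Crh nuclei the median of all genes itself lay at -0.18.

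**Figure D2:**
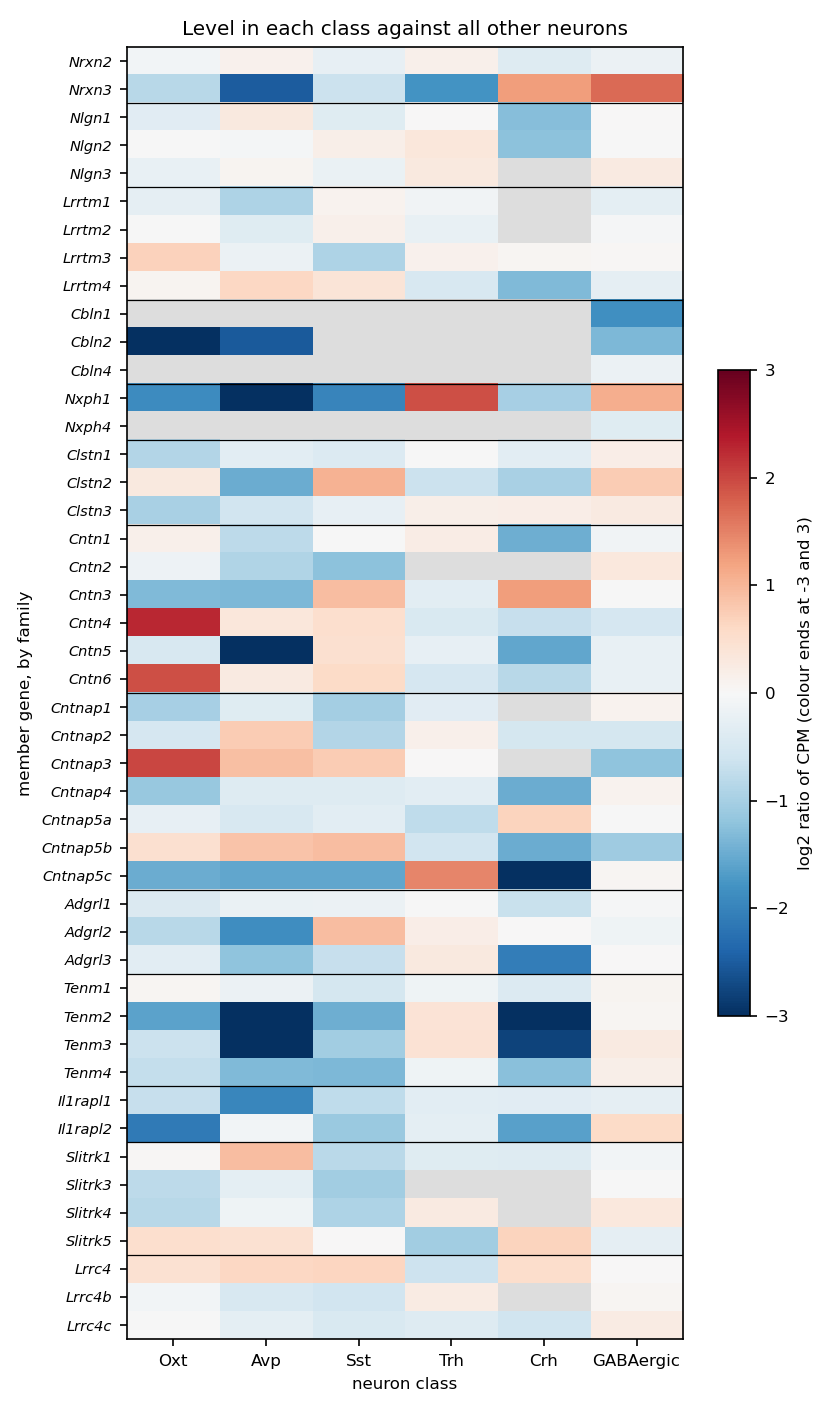
Log2 ratio of CPM in each neuron class (columns) to all other neurons, for members reported here and tested in at least 1 class (rows, grouped by family); grey cells were below the filter on UMIs, and the colour scale ends at -3 and 3. Cntn4, Cntn6 and Cntnap3 are red in Oxt nuclei, Nrxn3 is red in Crh and GABAergic nuclei, and Tenm2 and Tenm3 are dark blue in Avp and Crh nuclei.

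Nrxn3 levels separated the classes. It stood at 8614 CPM in GABAergic nuclei, 7039 in Crh, 2817 in ungated, 1956 in Sst, 1708 in Oxt, 880.3 in Trh and 546 in Avp nuclei. In GABAergic nuclei labelled Q153R, KD and Ctrl it had 6729.7, 8646 and 9136, against 2258, 2601 and 3006 in the other neurons of those pools, a ratio of 3.24 (3.18 to 3.30). The pools of the class lay above all pools of the other neurons. In Crh nuclei it had 6456, 7149 and 7406, against 2336, 2836 and 3431 in other neurons (ratio 2.40). With median-of-ratios size factors, which divide every Crh ratio by 1.28, the Crh ratio was 1.88 and no longer past 2-fold. The lower quartile of Crh nuclei, 5350.4, was above the upper quartile of other neurons, 4832, so the difference runs through the class. The lowest GABAergic pool lay between the Crh pools, so the order of these classes does not hold beyond the spread of the pools.

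In Avp nuclei the same gene was low. Nrxn3 had 587, 841 and 197 CPM in Avp nuclei labelled Q153R, KD and Ctrl, against 2493, 2991 and 3606 in other neurons (ratio 0.176, 0.162 to 0.191). The median Avp nucleus had no Nrxn3 UMI. Thinned to 2000 UMIs, 29.5% of Avp nuclei had an Nrxn3 UMI (43.3% before thinning), against 63.2% of glial-marker nuclei (69% before), all Crh and 96.5% of GABAergic nuclei. Trh nuclei were also low, at 582, 1329 and 911 in the pools, against 2461, 2917 and 3577 in other neurons (ratio 0.288). The Trh and Avp pools overlapped.

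Nrxn2 passed 2-fold in none of the classes, and its highest class was 1.45 times its lowest, the smallest span of the members tested in all classes.

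Nxph1 had the widest range over the classes among the 34 members tested in all of them. It ranged from 32.4 CPM in Avp to 1271 in Trh nuclei, a 39.2-fold span. In Trh nuclei it had 1797, 1121 and 970.5 in the Q153R, KD and Ctrl pools, against 297, 381 and 326 in other neurons (ratio 3.79, 3.54 to 4.06). Its UMIs sat in 46 of 128 Trh nuclei, so a minority of the class carried the signal. In GABAergic nuclei it had 786, 844 and 651, against 329.7, 370.0 and 321 (ratio 2.14). It was low in Avp (ratio 0.0864), Sst (0.253) and Oxt nuclei (0.270).

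At equal depth 36.7% of GABAergic and 32% of Trh nuclei had an Nxph1 UMI, against 2.84% of Avp, 10.1% of Oxt and 24.1% of glial-marker nuclei. Before thinning the shares were 43.2%, 35.9%, 5.56%, 20.3% and 22.5% in that order, at median depths of 5392, 5292.5, 5811.5, 6839 and 2718 UMIs. The Avp and Oxt shares were below the glial one, as were those of Sst (11.6%) and Crh nuclei (14.6%). Nxph1 was higher in glial-marker nuclei than in neurons, so the glial share sets no background level. The richest Avp nucleus had 14 Nxph1 UMIs and the richest Oxt nucleus 18. How much of the Avp and Oxt signal is free RNA was not tested.

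Cerebellin genes had few UMIs. Cbln1, best known from cerebellar granule cells, had 32 UMIs in Trh nuclei, 44.2 CPM, which was below the filter, and 6 in GABAergic nuclei (4.03 CPM, ratio 0.280). Cbln2 was low in Oxt (2 UMIs, 1.90 CPM, ratio 0.0922, 0.0111 to 0.335), Avp (ratio 0.175) and GABAergic nuclei (ratio 0.393). Cbln4 UMIs were found in 10.1% of thinned Oxt nuclei (5.66 to 16.4%), against 0.503% of Sst and 2.39% of ungated neurons. Trh nuclei came next with 4.92% (1.83 to 10.4%), and their interval overlaps that of Oxt nuclei. Of 87 thinned glial-marker nuclei 0 had one (up to 4.15%), and 0.775% of glial-marker nuclei did before thinning. Nxph4 UMIs were found in 7.38% of thinned Trh nuclei and 3.10% of ungated neurons. The intervals of these shares are wide.

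**Figure D3:**
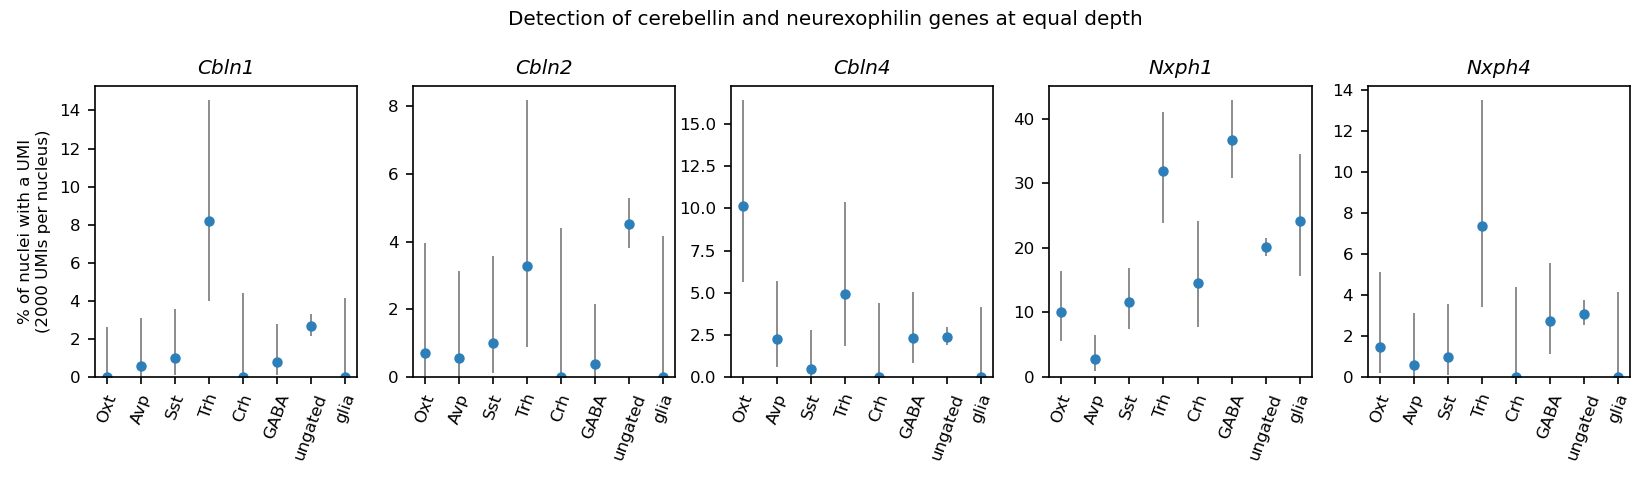
Share of nuclei with at least 1 UMI of each secreted neurexin ligand after thinning to 2000 UMIs per nucleus, by class, with exact 95% binomial intervals. Nxph1 is found most in GABAergic nuclei (36.7%), Cbln1 and Nxph4 in Trh nuclei (8.20% and 7.38%), and Cbln4 in Oxt nuclei (10.1%).

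Among the neuroligins and LRRTM genes, every call was in Crh nuclei, where the median of all genes was also below 0. Nlgn1 had 1952, 1780.1 and 1383 CPM in Crh nuclei labelled Q153R, KD and Ctrl, against 4081, 4139.8 and 3972 in other neurons (ratio 0.412). Lrrtm4 had 2361, 1187 and 1107, against 4052, 3720.0 and 3761 (ratio 0.397). Nlgn2 had 11 UMIs in Crh nuclei (ratio 0.429, 0.214 to 0.769), none of them in KD nuclei. Clstn2 was highest in Sst nuclei, at 575, 765 and 431 in the pools against 252, 268 and 283 (ratio 2.07); the Ctrl pool alone was at 1.52 and the class at 1.97 with median-of-ratios size factors. It was lowest in Avp nuclei (ratio 0.356). In Avp nuclei Lrrtm4 did not pass 2-fold (ratio 1.55).

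Oxt nuclei carried more of the neighbouring contactins Cntn4 and Cntn6. Cntn4 had 3984, 3495 and 3759 CPM in Oxt nuclei labelled Q153R, KD and Ctrl, against 899, 748 and 735 in other neurons, a ratio of 4.77 (4.60 to 4.93). Cntn6 had 1426, 1337 and 1480.0, against 428, 368 and 339.9 (ratio 3.82, 3.61 to 4.03). For both genes the pools did not overlap, and the lower quartile of Oxt nuclei, 2274 for Cntn4 and 842 for Cntn6, lay above the upper quartile of other neurons, 1134 and 545. Cntn6 and Cntn4 are adjacent on chromosome 6, 814 kb apart with 0 protein-coding genes between them. Across the classes both ran from Crh at the low end (561 and 234) to Oxt.

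Cntn3, which lies 1919.7 kb from Cntn6, took another course. In Oxt nuclei it had a ratio of 0.398 and in Avp nuclei 0.391. In Crh nuclei it had 1093, 1347 and 1496 CPM in the pools, against 589, 577 and 529 in other neurons (ratio 2.37, 2.17 to 2.59), with Q153R nuclei at 1.86, and 1.85 with median-of-ratios size factors, below 2-fold. Cntn5 was near absent from Avp nuclei, at 289, 70.5 and 79.3 against 2251, 2334 and 1929 (ratio 0.0675), and was highest in Sst nuclei, at 2850.0. Cntn1, the paranodal contactin, was lower in Crh nuclei (ratio 0.364), and Cntn2 in Sst nuclei (ratio 0.426). Within the family, Oxt nuclei had 2 higher and 1 lower and Crh nuclei 1 higher and 2 lower of 6 contactins tested in Oxt and 5 in Crh nuclei, so neither class was high or low for contactins as a whole.

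**Figure D4:**
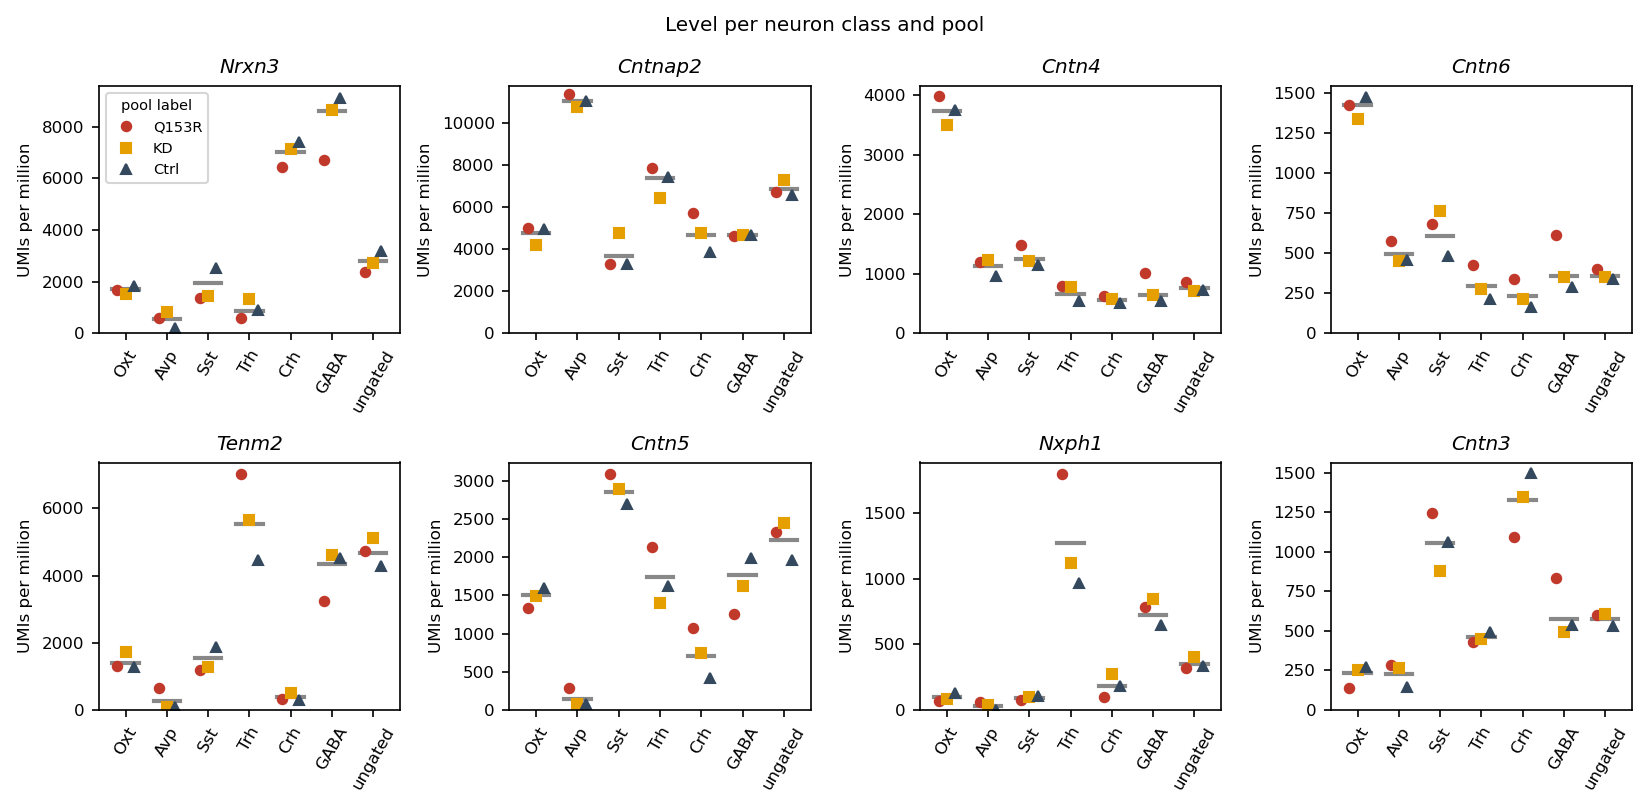
CPM of 8 members in each neuron class; points are the pools labelled Q153R, KD and Ctrl and the grey line is the class over all pools. Cntn4 and Cntn6 peak in Oxt nuclei in all pools, Nrxn3 is high in Crh and GABAergic nuclei, Cntnap2 in Avp nuclei, and Tenm2 and Cntn5 are near 0 in Avp nuclei.

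Of the contactin-associated genes, Cntnap3 was raised in Oxt nuclei, at 143, 161 and 159 CPM in the pools against 41.1, 35.7 and 40.0 in other neurons (ratio 3.99). It was found in 71 of 143 Oxt nuclei. Cntnap5c was raised in Trh nuclei, at 499, 186 and 307 against 135, 126 and 119.8 (ratio 2.76), though KD nuclei alone were at 1.47. In Crh nuclei Cntnap5c had 4 UMIs (ratio 0.0776, 0.0211 to 0.199), and it was also lower in Sst (0.340), Avp (0.338) and Oxt nuclei (0.357). Its relative Cntnap5b was lower in GABAergic (ratio 0.478) and Crh nuclei (0.357), Cntnap4 in Crh (0.356) and Oxt nuclei (0.457), and Cntnap1, a paranodal axon protein, in Sst nuclei (0.497). Cntnap3 was lower in GABAergic nuclei (0.433).

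Cntnap2 did not pass 2-fold, but Avp nuclei were its high end. It had 11341, 10725 and 11021 CPM in Avp nuclei labelled Q153R, KD and Ctrl, against 6466, 6869 and 6134 in other neurons (ratio 1.71, 1.68 to 1.74). The pools did not overlap. The long genes Lrrtm4 and Nlgn1 also had their highest class level there, at 5744 and 4854 CPM. Cntnap2 was lowest in Sst nuclei, at 3695.

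Teneurins and latrophilins bind each other across the cleft. In Avp nuclei 3 of 4 teneurins and 2 of 3 latrophilins were lower, and in Crh nuclei 3 of 4 teneurins and 1 of 3 latrophilins were, beside the shares of all genes given above. Tenm2 had 648, 75.7 and 95.7 CPM in Avp nuclei labelled Q153R, KD and Ctrl, against 4429, 4756 and 3964 in other neurons (ratio 0.0620, 0.0551 to 0.0694). Of the 299 UMIs, 235 were in Q153R nuclei, 203 of them in 6 nuclei with at least 10 each. In Crh nuclei it had 334, 509 and 302, against 4309.8, 4592 and 3885 (ratio 0.0872). It was also lower in Oxt (0.328) and Sst nuclei (0.362). Trh nuclei at 5525, ungated neurons at 4685 and GABAergic nuclei at 4345 made up the high end.

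Tenm3 had a ratio of 0.117 in Avp, 0.147 in Crh and 0.486 in Sst nuclei, with 0.309 in Crh and 0.507 in Sst nuclei when the gates were halved. Tenm4 had 0.394 in Sst, 0.401 in Avp and 0.421 in Crh nuclei. Tenm1 alone of the family passed 2-fold in none of the classes, with a span of 1.49-fold. Among the latrophilins Adgrl3 had 467, 329.6 and 503 CPM in Crh nuclei, against 1890.2, 1856 and 1878 in other neurons (ratio 0.237). In Avp nuclei Adgrl3 had a ratio of 0.430 and Adgrl2 of 0.277, and Adgrl1 was not called.

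Of the genes whose products meet receptor phosphatases, Il1rapl1 was low in Avp nuclei, at 859.9, 726 and 632 CPM against 2990.5, 2836 and 2801 (ratio 0.258). Il1rapl2 was low in Oxt nuclei (ratio 0.232, and 0.104 without the nucleus richest in it in each group). Its ratios of 0.324 in Crh and 0.466 in Sst nuclei became 0.667 and 0.600 with the CPM gates halved, so both calls rest on the gate. Slitrk5 had 20 UMIs in Trh nuclei (ratio 0.486, 0.296 to 0.753) and Slitrk3 a ratio of 0.486 in Sst nuclei. The netrin-G ligand genes Lrrc4, Lrrc4b and Lrrc4c passed 2-fold in none of the classes where they were tested. Neither did Cntnap5a, Nlgn3, Lrrtm1, Lrrtm2, Lrrtm3, Clstn1, Clstn3, Slitrk1, Slitrk4, Cbln4 or Nxph4 where tested. Cbln4 and Nxph4 passed the filter on UMIs in GABAergic nuclei alone. Cbln4 in Oxt nuclei and Nxph4 in Trh nuclei were thus not tested for a 2-fold difference.

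Calls near the threshold depended on the settings. In all, 15 of the 59 pairs lost the call under at least 1 setting that kept all pools. Halving the CPM gates, which brings in nuclei with fewer of the defining transcripts, took 11 calls. Beside Il1rapl2 and Tenm3 these were Cntnap5b (0.525) and Tenm4 (0.506) in Crh nuclei, Cbln2 (0.519), Cntnap3 (0.600) and Nxph1 (1.92) in GABAergic nuclei, Cntn2 (0.526) and Slitrk3 (0.572) in Sst nuclei and Slitrk5 (0.584) in Trh nuclei. Doubling them took Cntnap1 in Sst (0.590) and Slitrk5 in Trh nuclei (0.715). Ratios still past 2-fold moved by over 1.5 times, among others, for Tenm2 in Crh nuclei (0.153 with gates halved), Nrxn3 in Avp nuclei (0.286 halved, 0.111 doubled), Cntn5 in Avp (0.0435) and Crh nuclei (0.167, both doubled) and Cntnap3 in GABAergic nuclei (0.0552, doubled). Without its richest nucleus, Nxph1 was at 0.0537 in Avp and Cntnap5c at 0.0199 in Crh nuclei. Within single pools further calls were lost. Among others, Cntnap4 in Crh nuclei was at 0.806 in the Q153R pool and 0.0766 in the Ctrl pool. Cntn1 in Crh nuclei was at 0.645 in Q153R and 0.144 in KD, and Cntn2 in Sst nuclei at 0.823 in Ctrl.

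A list of 79 other adhesion and synaptic scaffold genes was followed beside the members. In Oxt nuclei 0 were higher and 16 lower of 66 tested, in Avp 2 and 24 of 67, in Sst 0 and 10 of 64, in Trh 0 and 3 of 59, in Crh 2 and 11 of 53, and in GABAergic nuclei 0 and 2 of 69. The same shares of all genes apply as above. Higher in Avp nuclei were Sdk1, a homophilic sidekick protein, at 1297 against 469 CPM (ratio 2.76), and the netrin receptor Unc5c at 2927 against 1416 (ratio 2.07). Higher in Crh nuclei were Nectin1 (ratio 3.64) and the scaffold Homer1 (2.71). Ntng1, the receptor of the Lrrc4c protein, was lower in Avp (0.130), Sst (0.170), Crh (0.193) and Trh nuclei (0.335), while Lrrc4c itself was not called there. Grid1, a delta receptor that cerebellins can bind, was lower in Avp (0.172) and Oxt nuclei (0.244), where Cbln2 was lower too.

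Across single neurons, the 19 members with a mean of at least 1 UMI after thinning were correlated over 4266 nuclei, which share 1 library and a fixed depth. The highest Pearson correlations were Tenm2 with Adgrl3 (0.477), with Tenm3 (0.409) and with Nlgn1 (0.391). The lowest was Cntnap5b with Nrxn3 (-0.220). These are descriptions of sparse counts and include differences between classes.

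Pools were compared over neurons without the GABAergic class, because that class made up 3.68% of Q153R, 5.31% of KD and 7.99% of Ctrl neurons. This left 1361, 1176 and 1624 nuclei, with medians of 4905, 6236 and 5686.5 UMIs. Shares of other classes differed too, as for Trh nuclei at 3.11% of Q153R, 1.61% of KD and 3.63% of Ctrl neurons. The sexes were mixed unequally, with at least 3 Xist UMIs and no Y-linked UMI in 48.0% of Q153R, 81.5% of KD and 67.9% of Ctrl nuclei.

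Adhesion genes differed little between the pools. Of 49 members tested (all but Nxph2, Nxph3 and Cbln3), 0 were past 1.5-fold in Q153R over Ctrl, where 4.08% of all genes were. In KD over Ctrl 0 were higher and 1 was lower, where 1.85% of all genes were higher and 2.14% lower (3.99% either way). In Q153R over KD 0 were called, against 5.21% of all genes. Genes of at least 500 kb that are not members were rarely called too. In Q153R over Ctrl 0 of 208 such genes were higher and 1 lower. In KD over Ctrl 3 of 209 were higher and 0 lower, and in Q153R over KD 1 was higher and 3 lower. Few calls are thus not particular to the members. These comparisons share pools, and with 1 pool a genotype there was no replicate to test them with. The median log2 ratio of the members was 0.07 in Q153R over Ctrl, 0.04 in KD over Ctrl and 0.02 in Q153R over KD, against -0.02, -0.04 and 0.02 over all genes.

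The 1 call was Il1rapl2, an X-linked relative of Il1rapl1. It had 309 CPM in Q153R, 224 in KD and 436 in Ctrl nuclei. The ratio was 0.515 (0.487 to 0.544) for KD over Ctrl, 0.709 for Q153R over Ctrl and 1.38 for Q153R over KD. KD was below Ctrl in every class taken alone, with ratios of 0.0525 in Oxt (0.00623 to 0.197), 0.554 in Avp, 0.630 in Sst, 0.382 in Trh, 0.136 in Crh (0.0155 to 0.554), 0.585 in GABAergic and 0.504 in ungated neurons. Only 9.79% of Oxt nuclei had an Il1rapl2 UMI. Without the richest nucleus of each group, the ratio of Oxt nuclei to other neurons fell from 0.232 to 0.104. Much of the Oxt signal thus sits in 1 nucleus, and the Oxt interval, which treats UMIs as independent, is too narrow. Over nuclei with Xist UMIs alone the KD over Ctrl ratio was 0.573. After thinning, 18.8% of Q153R (16.7 to 21.0%), 16.0% of KD (13.9 to 18.2%) and 22.3% of Ctrl nuclei (20.3 to 24.5%) had an Il1rapl2 UMI, and 0 of 87 glial-marker nuclei did. The share of nuclei differed less than the UMIs did. The mice behind each pool cannot be told apart, so a difference between single mice was not tested.

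Smaller differences were seen for a few abundant members. Nrxn3 had 2258, 2601 and 3006 CPM in Q153R, KD and Ctrl nuclei. Its ratio was 0.865 for KD over Ctrl and 0.751 for Q153R over Ctrl, which was 0.872 over nuclei with Xist UMIs. With the CPM gates halved the Q153R over Ctrl ratio was 0.784, and with them doubled 0.697. Gad2 still had 26.2, 27.0 and 39.4 CPM in the Q153R, KD and Ctrl nuclei compared. The part of GABAergic nuclei below the gate was not tested. Cntn5 had 2186, 2261 and 1856, with KD over Ctrl at 1.22. Tenm2 had 4279, 4536 and 3772, with KD over Ctrl at 1.20. All of these were under 1.5-fold.

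Cntnap5c was at 1.22 and Cntn2 at 1.23 in Q153R over Ctrl. Cbln1, with 111, 133 and 117 UMIs in the Q153R, KD and Ctrl pools, was at 1.42 in KD over Ctrl (1.10 to 1.84). In Q153R over KD, Cntn4 was at 1.18, Cntnap5c at 1.17 and Adgrl2 at 1.17. Of the partner genes Lrfn3 (ratio 1.55, 62 against 50 UMIs) and Ntng2 (1.82, 29 against 20 UMIs) were higher in KD than in Ctrl, and Ntng2 was lower in Q153R than in KD (0.597); the intervals of the Ntng2 ratios include 1.

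**Figure D5:**
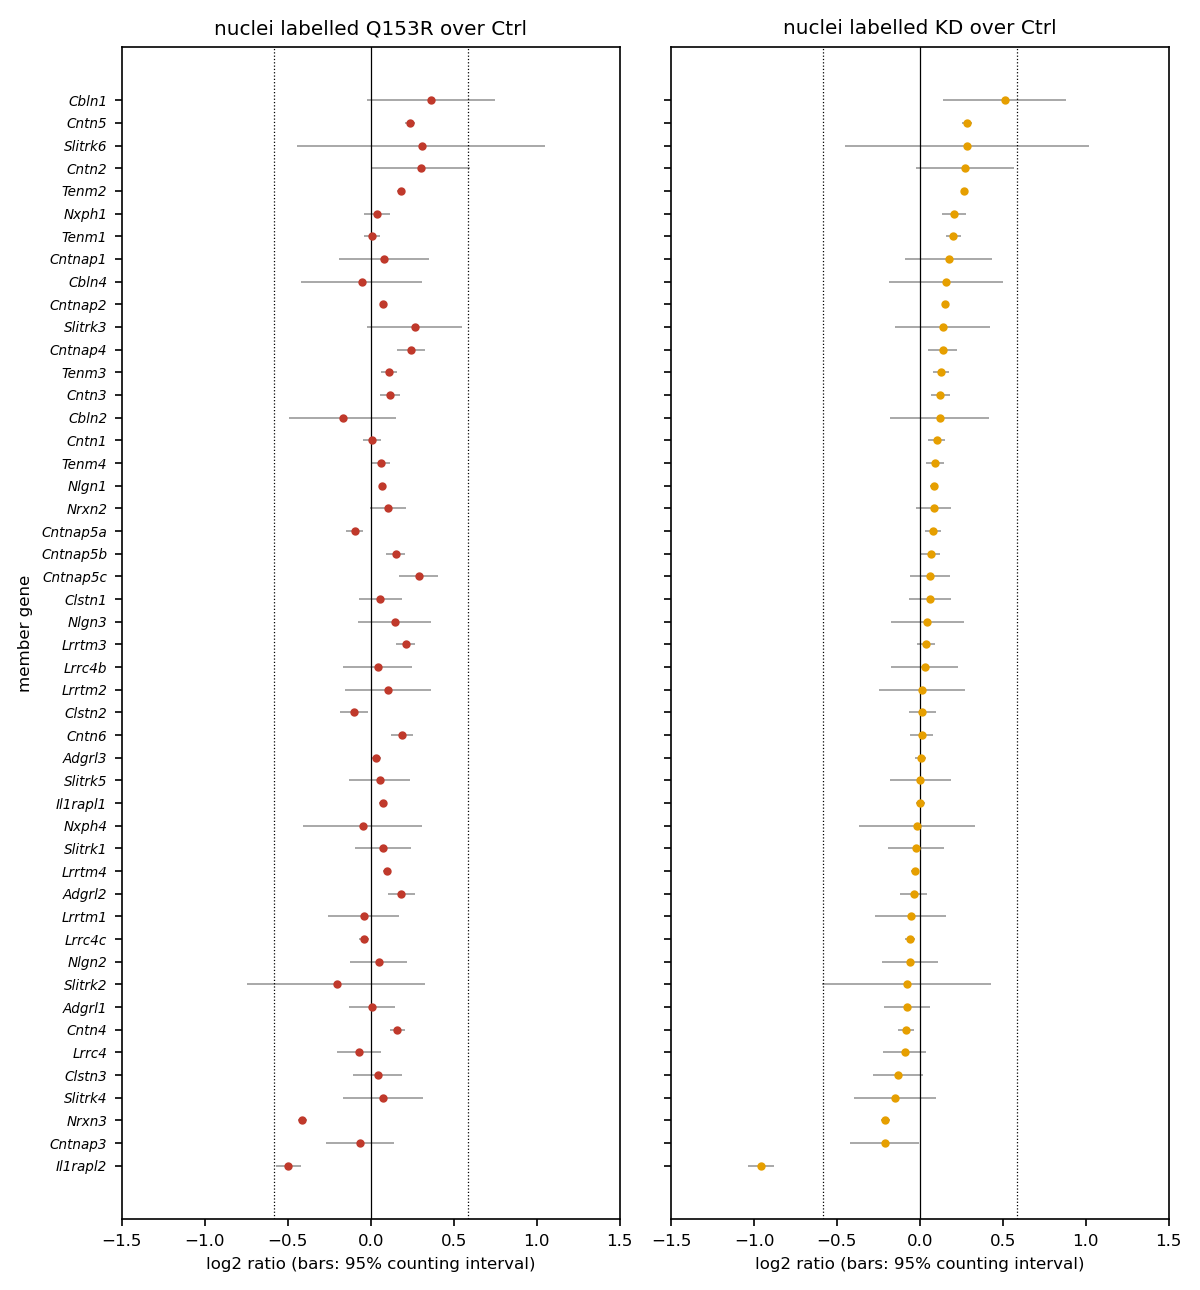
Log2 ratio of CPM for the tested members reported here in nuclei labelled Q153R over Ctrl (left) and KD over Ctrl (right), with 95% counting intervals; the dotted lines mark 1.5-fold and both panels are sorted by KD over Ctrl. Il1rapl2 in KD over Ctrl, at -0.96, is the single point past a line.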

How the data were processed

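The authors deposited UMI counts per gene and barcode for 1 droplet library, together with 3 hashtag rows. Cell Ranger 6.0.0 on mm10 made them, per the submitters' processing notes; the matrix header names version 7.0.0. The annotation, intron setting and cell calling are not given in the sources, and introns matter because nuclear RNA is largely unspliced. Gene rows were matched by ID to GENCODE vM21 for position and span (30934 IDs found).

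The deposited counts were read as they stand, with no rounding. Barcodes were kept with exactly 1 of Ctrl at 105 UMIs, KD at 61 and Q153R at 37 or more; 1124 barcodes with several tags and 137 with none were left out. Doublets within a pool carry 1 tag and remain, and no doublet caller was run; 46 neurons were over 15000 UMIs. Classes needed 5 UMIs and 2000 CPM of Oxt or of Avp, 5 and 1000 of Sst, and 3 and 500 of Trh, Crh or the GABAergic genes. Near the Trh gate lay 32 nuclei up to 1.25 times above it and 95 down to 0.800 times below; for Crh these were 11 and 72, and for GABAergic 50 and 116.

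UMIs were summed over nuclei and divided by summed gene UMIs to give CPM. Levels have exact Poisson intervals, ratios exact conditional binomial intervals and shares Clopper-Pearson intervals, all at 95%. A gene was tested with at least 20 UMIs expected in both groups. Thinning drew 2000 UMIs per nucleus at random and left out shallower nuclei, 154 of the neurons and 42 of the glial-marker nuclei. Scripts were tested on simulated counts. Python 3.11.15, numpy 2.4.6, scipy 1.17.1, pandas 2.3.3 and matplotlib 3.10.9 were used.

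Members and lists were chosen with earlier results of these data known. Genes named with values were, per class, up to 5 highest and 3 lowest ratios past the threshold and, per pool comparison, those past 1.5-fold or the 4 largest; further members called in a class are given by ratio. Values of 1 member are not reported here; counts over all members include it.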

Additional observations from a re-analysis of the deposited data

How the results depend on the processing

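No paired analysis was possible because no result comes from a test. Class values within each pool are in the report for some members only. The number of member and class pairs past 2-fold was 59 and stayed between 49 and 67 over the alternatives, apart from 100 with no filter on low counts. With median-of-ratios size factors the split was 7 higher and 58 lower, against 10 and 49; Nrxn3 and Cntn3 in Crh and Clstn2 in Sst nuclei were the higher calls lost. Of 701 class ratios recomputed, 528 moved by less than their interval, 173 moved by more and 0 changed direction. Members past 1.5-fold without the filter numbered 2 in Q153R over Ctrl (Cbln3 and Nxph2), 3 in KD over Ctrl (Cbln3, Il1rapl2 and Nxph3) and 3 in Q153R over KD (Cbln3, Nxph2 and Nxph3), against 0, 1 and 0; the filter's removal adds genes with few UMIs. With the mean of each nucleus's level, Il1rapl2 was also called in Q153R over Ctrl (1 member). With nuclei left out where a further tag passed 50% of its threshold, KD over Ctrl had 2 calls (Cbln1 and Il1rapl2) and Q153R over KD 1 (Il1rapl2). KD over Ctrl also had 2 in ungated neurons alone, an alternative chosen after seeing the data. The cause of these changes was not tested. Of 168 pool ratios recomputed, 144 stayed within their interval, 23 moved and 1 turned round: Cntnap5c in Q153R over KD was 0.996 over nuclei with Xist UMIs, against 1.17. Depth limits Nxph2, Nxph3, Cbln3, Slitrk6 and Slitrk2, which were below the filter in every class, and with 1 pool a genotype no spread between mice is known.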

Other observations

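Ungated neurons, 3390 of 4420, had the following levels: Cntn5 (2225 CPM), Tenm2 (4685) and Ntng1 (594, the netrin-G1 gene), against 145, 269 and 68.4 in Avp nuclei. Mdga1, whose product binds neuroligins and keeps neurexins from them, was lower in GABAergic nuclei, at 8.06 against 50.7 CPM (ratio 0.159). Lingo2, a leucine-rich repeat membrane protein, was lower in Avp nuclei, at 257 against 3203 (ratio 0.0803), and in Crh nuclei (ratio 0.105). Opcml, a lipid-anchored immunoglobulin protein, was lower in Avp nuclei too, at 143 against 1789.7 (ratio 0.0799).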
